A study of Mus musculus with 10 samples.

Results

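Resting CD4 T cells and B cells from the mouse spleen were compared gene by gene with RNA-seq. The comparison rests on 4 of the 10 libraries of the series: 2 of splenic CD4 T cells and 2 of splenic B220 B cells, chosen by their labels. The series profiles expression in embryonic stem cells, B cells and T cells, and its other 6 libraries are of embryonic stem cells and of T cells cultured under T helper 2 conditions with or without trichostatin A. Both cell types came from C57BL/6 mice of 6 to 8 weeks and carried no engineered allele or treatment that the labels name. Each was purified from spleen with magnetic beads on an AutoMACS sorter to a stated purity above 98%. RNA was extracted with TRIzol and made into libraries with the TruSeq RNA v2 kit. The labels do not say how many animals were used or whether they were pooled.

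B and T lymphocytes both read antigen through receptors assembled from rearranged genes, and both pass the signal on through invariant chains that carry tyrosine motifs. In T cells the receptor signals through the CD3 chains, LCK, ZAP70 and the adaptor LAT. In B cells it signals through CD79A and CD79B, the kinases LYN, BLK, SYK and BTK, and the adaptor BLNK. CD4 T cells recognise peptides on MHC class II molecules of B cells and other presenting cells, and help B cells through CD40 ligand and cytokines.

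Levels are given in FPKM, fragments scaled by transcript length and by the fragments mapped in the library, so that levels of different genes can be set side by side per length. Where a gene had several transcript rows, the highest in each library was taken. The deposited FPKM of the 4 libraries summed to between 405438 and 412181, and between 10097 and 10589 genes per library reached 1 FPKM. The libraries of a pair differed by a standard deviation of 0.051 (B) and 0.052 (CD4 T) on the log2 scale over genes at 5 FPKM or more, and the depth that this spread would imply if it came from read sampling varied 1.13-fold and 1.08-fold across levels. The titles number the libraries of a pair as experiments 1 and 2 and name no animals. Spread of this size, close to what 1 fixed depth would give at every level, was taken as that of 1 sample, so each pair was counted once, and the difference between the cell types has no replicate check and no p-value. Genes were called by size alone: the log2(FPKM + 1) values had to differ by 2 or more, and the higher group had to reach 5 FPKM. A difference of 2 is 4-fold in FPKM + 1 and thus more than 4-fold in FPKM, above all for low genes. These conditions are named the size rule. In what follows, higher and lower are used of CD4 T cells against B cells and, for a count, of genes past this rule. The gene lists were chosen with earlier results of these data known, so counts within them are descriptions and not tests.

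The labels were checked against Cd3e, Cd40lg and Pax5. Cd3e, which encodes the CD3 epsilon chain of the T cell receptor complex, stood at 2.27 and 1.76 FPKM in the B libraries and at 243 and 246 in the CD4 T libraries. Cd40lg, the gene of CD40 ligand, stood at 0.11 and 0.18 in the B libraries and at 76.8 and 78.8 in the CD4 T libraries. Pax5, which encodes the factor that holds the B cell fate, stood at 445 and 440.3 in the B libraries and at 20.9 and 21.1 in the CD4 T libraries. Each gene marked the library pair of its own lineage without overlap. B receptor transcripts in the CD4 T libraries nevertheless stood at a larger share of their own lineage's level than T receptor transcripts in the B libraries. The 17 genes of the B receptor list stood in the CD4 T libraries at a median of 7.0% of their B level, with quartiles of 5.82% and 10.4%. The 11 genes of the T receptor list stood in the B libraries at a median of 1.41% of their CD4 T level, with quartiles of 1.09% and 2.33%. The stated purity is above 98%, and the source of the B transcripts in the CD4 T libraries was not tested. In bulk RNA, fewer cells of a type and less RNA per cell cannot be told apart.

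Markers of myeloid cells were present in both pairs and stood higher in the CD4 T libraries. The 25 macrophage and monocyte genes of that list summed to between 569 and 572 FPKM in the B libraries and between 1102 and 1120.1 in the CD4 T libraries, and no member was at 0. Lyz2, the lysozyme gene of macrophages and neutrophils, stood at 16.8 and 16.5 in the B libraries and at 94.1 and 92.3 in the CD4 T libraries, and was the 1 member past the size rule. The complement genes C1qa, C1qb and C1qc had log2 fold changes of 1.71, 1.78 and 1.68, and Csf1r, the receptor for the macrophage growth factor, of 1.62. Every member but Spi1 and Cybb, which B cells also express, had its larger value in the CD4 T libraries. The list's median log2 fold change was 1.27, against 0.07 over all genes tested.

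Of 10776 genes tested, 331 were higher in CD4 T cells, 3.07% of those tested, and 220 were lower, 2.04%. With a pseudocount of 5 in place of 1 the counts were 147 and 127, since it shrinks the differences of low genes. The libraries of both groups did not overlap for 91.2% of genes, so a lack of overlap by itself marks nothing here. The largest difference was that of Igfbp4, which encodes a secreted protein that binds insulin-like growth factors. It stood at 0.32 and 0.52 FPKM in the B libraries and at 167 and 166 in the CD4 T libraries, a log2 fold change of 6.88. Als2cl followed with 6.62, then Cd3e with 6.35 and Cd6, a co-receptor of the T cell receptor, with 6.28. At the other end stood Fcer2a, which encodes the low-affinity IgE receptor CD23, with 416 and 414 FPKM in the B libraries, 19.7 and 19.4 in the CD4 T libraries and a log2 fold change of -4.34. Pax5 had the same value of -4.34, followed by Faim3, the IgM Fc receptor gene, with -4.27 and Scd1, a fatty acid desaturase gene, with -4.16. Among the genes called, 62 of 331 higher genes stood below 2% of their CD4 T level in B cells, whereas 1 of 220 lower genes stood below 2% of its B level in CD4 T cells.

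**Figure D1:**
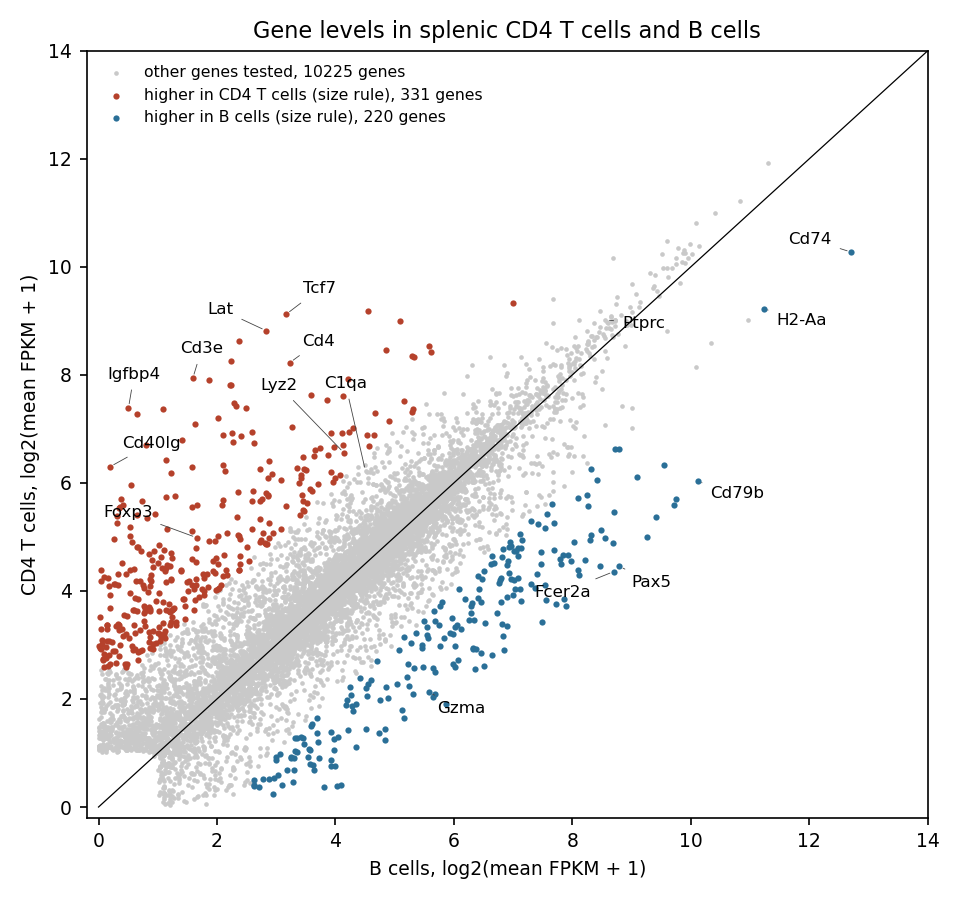
Mean level of each of the 10776 genes tested in B cells (horizontal) and CD4 T cells (vertical), both as log2(FPKM + 1); coloured points passed the size rule. The 331 red genes reach down to the left edge, with Cd40lg and Igfbp4 near 0 in B cells, while highly expressed B genes such as Pax5 and Cd79b sit well above 0 in the CD4 T libraries.

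The genes of the T cell receptor complex and its co-receptors were higher as a group. Of 11 tested members of this list, 10 were higher (90.9%, against 3.07% of all genes tested) and none lower. The median log2 fold change was 5.57. Cd3g and Cd3d, which encode the other CD3 chains, stood at 394 and 393 and at 234 and 240.4 FPKM in the CD4 T libraries, against 4.55 and 3.82 and 2.58 and 2.70 in the B libraries. Both were about as far apart between the cell types as Cd3e, with log2 fold changes of 6.25 and 6.03. Cd4, the co-receptor that binds MHC class II and gives the cells their name, stood at 299 in both CD4 T libraries and at 8.09 and 8.68 in the B libraries (log2 fold change 5.00). Cd5, which dampens receptor signalling, had a log2 fold change of 5.57, and Thy1, a surface glycoprotein of mouse T cells, of 6.02. Cd2, an adhesion receptor for CD48, was the member outside the rule: it stood at 181 and 179 in B cells and at 281 and 284 in CD4 T cells. Cd247, which encodes the zeta chain, had a log2 fold change of 3.06, below those of the CD3 genes.

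The lower value of Cd247 depended on which transcript was read. Its 4 transcript rows differ in how much of their exons lies over exons of Pou2f1, a broadly expressed gene on the opposite strand. The 3 rows with 59.4%, 78.7% and 73.0% of their exon bases under Pou2f1 stood at 30.8, 38.1 and 36.8 FPKM in B cells, with log2 fold changes of 3.35, 2.21 and 2.21. The row without any such overlap stood at 5.07 and 5.50 in the B libraries and at 243 and 241 in the CD4 T libraries, with a log2 fold change of 5.27. Pou2f1 itself stood at 15.7 FPKM in B cells and at 13.3 in CD4 T cells. Whether strand was used in counting is not given in the sources used here, so reads of Cd247 and Pou2f1 cannot be told apart in the overlapped exons. Across the genes called or listed, 81 of the 1039 found in the annotation had 5% or more of their exon bases in exons of another protein-coding gene, among them Cd72, Lat2, Hvcn1, Mzb1, Il4i1 and Sh2d1a.

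B cell receptor genes showed the mirror pattern. Of 17 members, 14 were lower in CD4 T cells (82.4%, against 2.04% of all genes tested) and none higher. The median log2 fold change was -3.79. Cd79b and Cd79a, the signalling chains, stood at 1107 and 1109 and at 860.4 and 859 FPKM in the B libraries, and at 64.4 and 64.0 and at 49.7 and 52.7 in the CD4 T libraries. Ms4a1, the gene of CD20, and Cr2, which encodes complement receptor CD21, had log2 fold changes of -4.04 and -4.0. The inhibitory receptors Cd22, Cd72, Siglecg and Fcgr2b were lower too, with log2 fold changes of -3.79, -3.24, -3.36 and -3.44. The 3 members outside the rule were Cd37, Cd81 and Cd200, with log2 fold changes of -1.95, -1.31 and -0.79. Cd37 and Cd81 encode tetraspanins, and Cd37 still stood at 282 and 280 FPKM in the CD4 T libraries.

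Most listed signalling genes of each receptor stood higher in the cells that use it. Of 23 genes of T receptor signalling, 15 were higher (65.2%, against 3.07% of all genes tested) and none lower (median 3.53). Of 20 genes of B receptor signalling, 11 were lower (55.0%, against 2.04% of all) and none higher (median -2.18). Related genes of both lists are set side by side here; these pairs were chosen after their values had been seen, so nothing is read from how many of them divide. The kinases ZAP70 and SYK bind the phosphorylated receptor chains. Zap70 stood at 3.76 FPKM in both B libraries and at 120.2 and 119.7 in the CD4 T libraries, a log2 fold change of 4.67. Its relative Syk stood at 260.1 and 258 in the B libraries and at 29.1 and 28.8 in the CD4 T libraries, a log2 fold change of -3.12. In FPKM, Zap70 was thus the more abundant of the pair in CD4 T cells and Syk in B cells.

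Among the SRC family kinases, which act first after receptor binding, Lck stood at 351 and 348 FPKM in the CD4 T libraries and Blk at 350.1 and 352 in the B libraries, nearly the same level per length. The B libraries held Lck at 27.8 and 28.3, and the CD4 T libraries held Blk at 21.0 and 21.1. Fyn and Lyn differed less, with log2 fold changes of 2.06 and -2.29, and Fyn still stood at 38.4 and 38.6 in B cells. Among the TEC family kinases, which activate phospholipase C, Btk stood at 141 and 139 in B cells and at 12.8 and 13.3 in CD4 T cells, a log2 fold change of -3.33. Txk and Tec had log2 fold changes of 3.53 and -2.26.

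Adaptors link these kinases to phospholipase C. Lat, the membrane scaffold of T cell receptor signalling, stood at 6.21 and 5.99 FPKM in B cells and at 452 and 449.7 in CD4 T cells, and had the largest value of the T signalling list with a log2 fold change of 5.99. Its relative Lat2 had a log2 fold change of -3.07, although part of its exons overlaps Rfc2 on the opposite strand. Lcp2, which encodes SLP-76, stood at 4.91 and 5.15 in B cells and at 122 in both CD4 T libraries, and Blnk, its B cell relative, at 294 and 295 in B cells and at 23.4 and 22.2 in CD4 T cells. Of the phospholipase C gamma genes, Plcg1 had a log2 fold change of 2.69 and Plcg2 of -2.99. Plcg1 stood at 14.8 and 14.7 in the B libraries and Plcg2 at 15.2 and 15.7 in the CD4 T libraries, the latter 11.9% of its B level. The source of transcripts of B signalling genes in the CD4 T libraries was not tested.

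Further downstream, 1 gene of each of 2 pairs did not pass. Prkcq, the protein kinase C of the T cell synapse, was higher by 5.11, whereas Prkcb, which serves the same step in B cells, had a value of -1.53 and stood at 40.2 and 40.8 FPKM in CD4 T cells. Rasgrp3, a RAS activator, was lower with -3.34, whereas Rasgrp1 stood at 54.9 and 54.8 in B cells and at 116 and 117 in CD4 T cells, with a log2 fold change of 1.07 that did not pass. Genes that both receptors use differed less: Vav1, Malt1 and Bcl10 had log2 fold changes of -0.25, -0.96 and -0.59, and none passed. None of 19 genes of the NF-kappaB family passed in either direction; with 5.11% of all genes tested past the rule, a count of 0 in a list of this size says little about the family. Rela, the main activating subunit, stood at 49.7 and 49.9 in B cells and at 51.3 and 51.4 in CD4 T cells, while Rel, the gene of c-Rel, had a log2 fold change of -1.40.

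**Figure D2:**
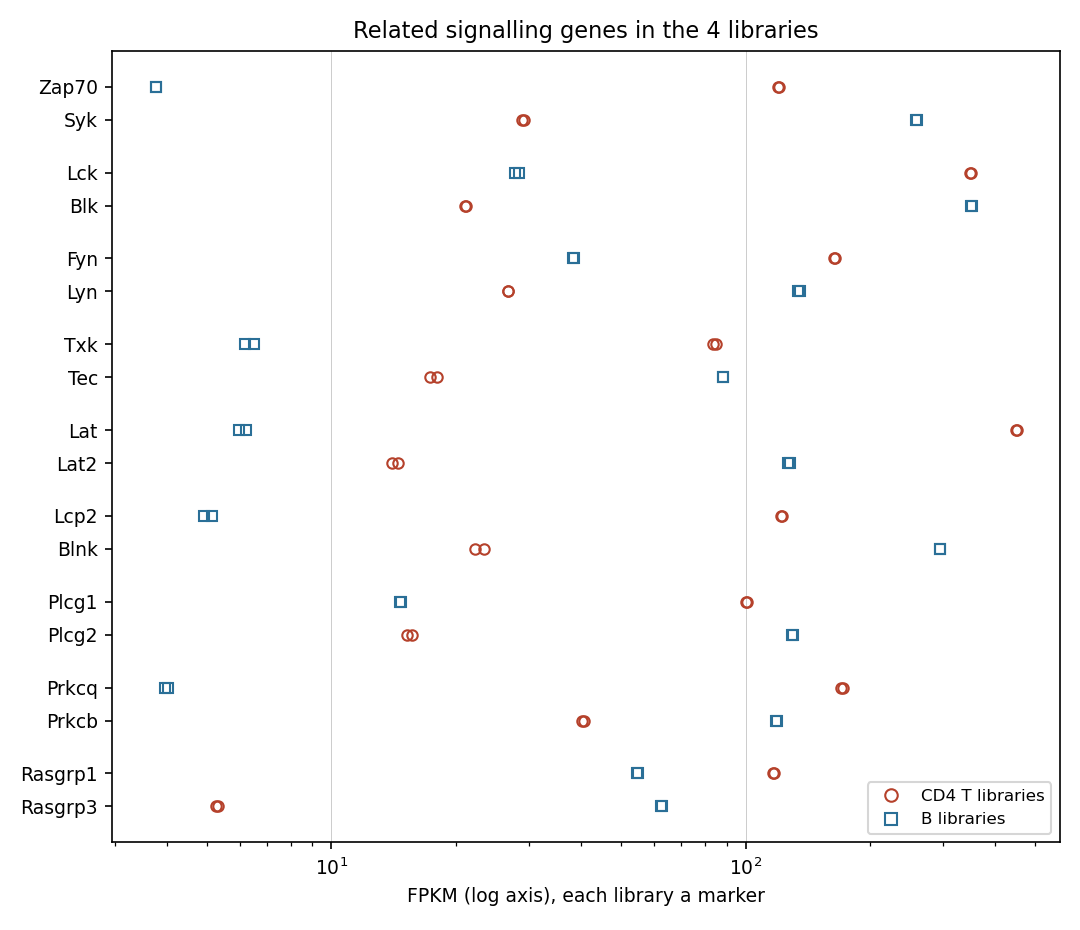
FPKM on a log axis of 9 pairs of related genes in each of the 4 libraries, with circles for CD4 T and squares for B libraries; the T member stands first in each pair. The marker order swaps within each pair, as for Lck (about 350 FPKM in CD4 T cells) and Blk (about 350 FPKM in B cells), and Rasgrp1 and Prkcb show the smallest gaps.

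Lineage factors differed between the cell types, though less uniformly than the receptor genes. Of 20 factors of the T list, 9 were higher (45.0%, against 3.07% of all genes tested) and none lower (median 2.14). Of 21 of the B list, 9 were lower (42.9%, against 2.04% of all) and none higher (median -1.64). Tcf7, the gene of TCF-1, which supports T cell identity and naive T cells, stood at 8.43 and 7.56 FPKM in B cells and at 553 and 560.0 in CD4 T cells, the highest level of any T factor. Its relative Lef1 stood at 4.18 and 4.41 in B cells and at 116 and 115 in CD4 T cells. Bcl11b, needed for commitment to the T lineage, stood at 0.28 and 0.31 in B cells and at 51.5 and 51.1 in CD4 T cells, and Gata3, the factor of CD4 and Th2 cells, at 0.48 and 0.54 and at 19.9 and 20.3. Their log2 fold changes were 5.95, 4.46, 5.33 and 3.8. Satb1 and Zbtb7b, the latter the gene of ThPOK, which directs the CD4 choice, had values of 1.96 and 1.71 and did not pass. Runx1 and Runx3 stood at nearly the same level in both cell types, with log2 fold changes of 0.17 and 0.07.

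On the B side, Ebf1, which specifies B cells together with Pax5, stood at 57.3 FPKM in both B libraries and at 2.72 and 2.76 in the CD4 T libraries (log2 fold change -3.96). Pou2af1, a coactivator of octamer-binding factors, stood at 371 and 374 in B cells and at 29.7 and 31.2 in CD4 T cells, and Spib, an ETS factor, had a log2 fold change of -3.35. Mef2c, Hhex, Bcl11a and Pou2f2, the gene of OCT2, were also lower, with -3.45, -2.79, -2.56 and -2.16. Irf4 lay at the threshold with -2.0. The members outside the rule included Ikzf3 (-1.89), Irf8 (-1.41), Tcf3 (-1.15), Bcl6 (-0.99) and Bach2 (-0.80). Foxo1, which acts in both lineages, stood at 47.5 and 47.7 in B cells and at 64.4 and 64.3 in CD4 T cells.

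Because octamer factors on the B side and TCF factors on the T side were among the genes that differed, the promoters of the called genes were searched for their short motifs. The octamer (ATGCAAAT on either strand) was in the window from 250 bases before to 50 after the start site for 8 of 160 lower genes with a promoter sequence (5.00%) and for 4 of 256 higher genes (1.56%), against 1.57% of 8702 genes tested that have one. The core TCF and LEF word (CTTTGAT on either strand) was in 14 of 256 higher genes (5.47%) and 5 of 160 lower genes (3.13%), against 2.98% of all. A word of PU.1 and SPI-B (GAGGAAGT) was in 5.08% of higher, 5.63% of lower and 3.98% of all genes, and a Runx word (TGTGGTTT) in 3.52%, 3.75% and 1.52%. Matches are descriptions of the letters and not of binding. The 250 bases before the start site are printed for 4 called genes that hold a match, with the matched word in capitals, because they pair a gene of B or T receptor function that differed with a word of a factor family that also differed. Sequences are from RefSeq for GRCm38.p6, written 5′ to 3′ on the gene's strand. Vpreb3, a chaperone gene of immunoglobulin assembly, lies on the plus strand (chr10:75948050-75948299), and Blnk on the minus strand (chr19:40994222-40994471), both with the octamer. Cd3d lies on the plus strand (chr9:44981536-44981785) and Trat1, an adaptor gene of the T cell receptor complex, on the minus strand (chr16:48772063-48772312), both with the TCF and LEF word.
Vpreb3: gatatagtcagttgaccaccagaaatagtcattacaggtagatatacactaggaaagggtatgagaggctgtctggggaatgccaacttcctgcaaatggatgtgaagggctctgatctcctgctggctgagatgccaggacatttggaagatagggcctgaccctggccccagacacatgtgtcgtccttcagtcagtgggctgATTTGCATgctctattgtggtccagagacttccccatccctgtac
Blnk: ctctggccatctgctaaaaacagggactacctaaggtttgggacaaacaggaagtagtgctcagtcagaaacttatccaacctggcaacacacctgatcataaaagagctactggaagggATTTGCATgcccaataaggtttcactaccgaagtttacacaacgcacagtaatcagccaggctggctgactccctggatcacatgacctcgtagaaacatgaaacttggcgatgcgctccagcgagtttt
Cd3d: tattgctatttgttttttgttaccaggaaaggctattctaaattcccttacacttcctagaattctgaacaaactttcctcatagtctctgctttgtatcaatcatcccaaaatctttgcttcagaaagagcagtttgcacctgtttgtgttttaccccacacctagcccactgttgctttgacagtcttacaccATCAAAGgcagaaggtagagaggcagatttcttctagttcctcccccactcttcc
Trat1: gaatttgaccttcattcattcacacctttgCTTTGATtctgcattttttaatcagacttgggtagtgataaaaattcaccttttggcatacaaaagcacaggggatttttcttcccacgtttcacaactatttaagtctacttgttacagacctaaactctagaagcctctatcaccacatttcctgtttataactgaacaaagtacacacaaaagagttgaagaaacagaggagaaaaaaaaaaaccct
The octamer begins 45 bases before the start site in Vpreb3 and 130 in Blnk, and the TCF and LEF word 55 bases before it in Cd3d and 220 in Trat1. Vpreb3 stood at 97.7 and 99.1 FPKM in the B libraries and at 5.68 and 6.41 in the CD4 T libraries. Trat1 stood at 1.41 and 1.0 in the B libraries and at 88.9 and 81.8 in the CD4 T libraries.

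Most listed genes through which T cells help B cells were higher, while most of their listed partners passed in neither direction. Of 25 tested help genes 16 were higher (64.0%, against 3.07% of all genes tested) and 1 lower (median 2.50). Of 20 partners 2 were higher (10.0%), 4 lower (20.0%, against 2.04% of all genes tested) and 14 neither, with a median of -0.10. With a pseudocount of 5 the counts higher were 7 for the help genes and 0 for the partners. CD40 ligand and its receptor stood on opposite sides: Cd40 stood at 120.2 and 116 FPKM in B cells and at 13.8 and 13.9 in CD4 T cells, a log2 fold change of -3.0 against 6.10 for Cd40lg. Icos, an inducible costimulator, stood at 0.49 and 0.39 in B cells and at 31.4 and 31.5 in CD4 T cells. Icosl, its ligand, stood at 187 and 184 in B cells and at 35.3 and 34.9 in CD4 T cells. Cd28 and Ctla4, which bind CD80 and CD86, had log2 fold changes of 4.96 and 4.59. Their ligand genes did not pass: Cd86 stood at 32.4 and 32.9 in B cells and at 22.1 and 22.6 in CD4 T cells, and Cd80 had a log2 fold change of 0.60.

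Other ligand and receptor genes of the TNF family divided in the same way or not at all. Tnfsf8, the gene of CD30 ligand, and Cd27 were higher with 4.16 and 3.73, as were Tnfrsf9, Tnfrsf4 and Tnfrsf18, the genes of 4-1BB, OX40 and GITR, with 3.04, 2.58 and 2.09. Tnfrsf13c, which encodes the BAFF receptor that keeps mature B cells alive, was lower with -3.96, and Tnfrsf13b, the gene of TACI, with -2.21. Ltb, the gene of lymphotoxin beta, stood at 403 and 408 FPKM in B cells and at 426 and 431 in CD4 T cells and thus nearly level. Btla, an inhibitory receptor on both cell types, was the 1 help gene that was lower: it stood at 439 and 441 in B cells and at 98.3 and 96.6 in CD4 T cells, whereas the gene of its ligand, Tnfrsf14, had a log2 fold change of 0.85. Receptors of the SLAM family lay near the diagonal, with values of 0.45 for Slamf6, 0.14 for Ly9, 0.25 for Cd84 and 0.07 for Cd48. Cytokine genes of helper cells were low in both: Il4 stood at 5.14 and 4.90 and Ifng at 9.61 and 9.78 in CD4 T cells, both past the rule, and Il2 at 2.62 and 2.57, below the minimum of the rule.

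The genes of antigen presentation on MHC class II were lower, yet the CD4 T libraries held them at high levels. Of 18 members 8 were lower (44.4%, against 2.04% of all genes tested) and none higher, with a median of -1.90. Cd74, the invariant chain that guides class II molecules, stood at 6707 and 6658 FPKM in B cells and at 1243 and 1230.2 in CD4 T cells (log2 fold change -2.43). H2-Aa stood at 2400 and 2403 in B cells and at 594 and 601 in CD4 T cells and lay at the threshold with -2.0, while H2-Ab1 and H2-Eb1, which encode class II beta chains, had values of -1.96 and -1.75 and did not pass. Among the larger differences were H2-DMb2 with -3.27, H2-Ob with -2.98 and H2-DMb1 with -2.74, genes of factors that load or edit peptides on class II. These 3 stood in CD4 T cells at 10.1%, 12.5% and 14.5% of their B level. The genes of their partner chains, H2-DMa and H2-Oa, differed less and stood at 27.6% and 21.8%. Ciita, the master regulator of class II genes, stood at 120 in both B libraries and at 22.7 and 22.6 in the CD4 T libraries.

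Class II genes therefore stood at a larger share of their B level than B receptor genes did. At 20 FPKM or more in B cells, 16 class II genes had a median share of 25.3%, with a range from 10.1% for H2-DMb2 to 58.6% for Ctss, a protease of macrophages and B cells. The 17 B receptor genes had 7.0%, and 19 B factors 26.7%, with a range from 4.74% for Pax5 to 135% for Foxo1. Over the 52 genes of the 3 lists together the median was 18.7%. Dendritic cells and macrophages also carry class II. Of 13 tested dendritic cell genes 3 were higher (23.1%) and 1 lower (7.69%), against 3.07% and 2.04% of all genes tested. The higher genes were Batf3, Clec4a4 and Itgax, and the lower was Ly6d, which B cells also express. The list had a median log2 fold change of 1.08. With a pseudocount of 5 Batf3 alone was higher, and Itgax was lost under both other scalings as well. Flt3, the growth factor receptor of dendritic cells, stood at 3.95 and 3.88 in B cells and at 17.1 and 16.7 in CD4 T cells. The dendritic list summed to between 925 and 932 in the B libraries and to 442 and 443 in the CD4 T libraries, of which Ly6d alone made 751 and 745 in B cells. The part of these cells in the class II level was not tested.

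**Figure D3:**
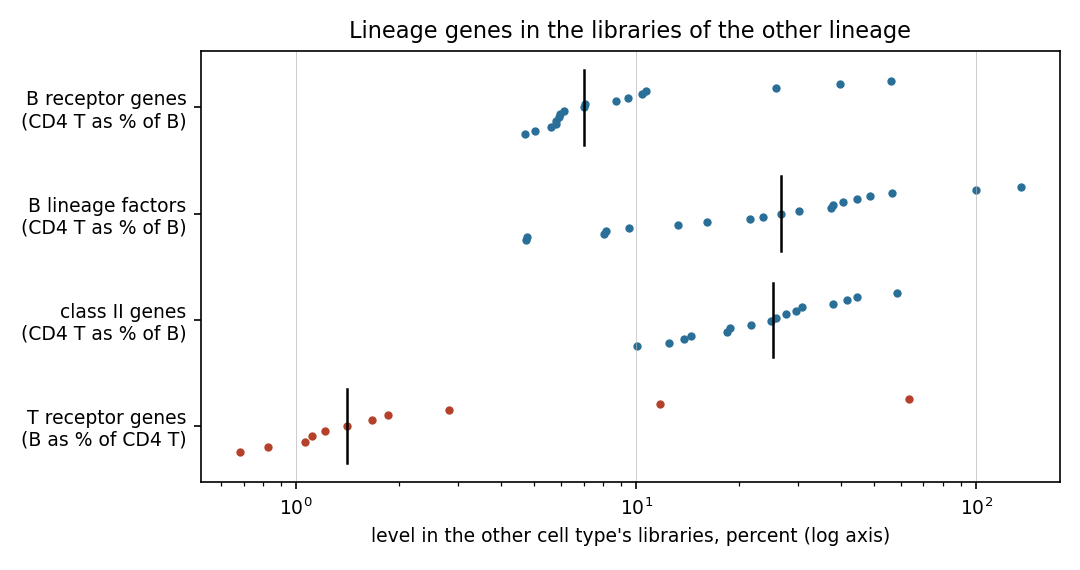
Level of each lineage gene in the libraries of the other lineage as a percent of its own, on a log axis; dots are genes at 20 FPKM or more in their own lineage and bars are medians. B receptor genes cluster near their median of 7.0% and T receptor genes near 1.41%, while class II genes and B factors spread around 25.3% and 26.7%.

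Homing receptors split in both directions. Of 31 tested genes 4 were higher and 4 lower, 12.9% each, against 3.07% and 2.04% of all genes tested. With a pseudocount of 5, 2 were higher. Cxcr5, which draws B cells into follicles, stood at 165 and 164 FPKM in B cells and at 15.5 and 15.8 in CD4 T cells, a log2 fold change of -3.31. Ccr6, the cannabinoid receptor gene Cnr2 and S1pr3, the last a marker of marginal zone B cells, were lower too, with -2.88, -2.56 and -2.52. On the T side were Cxcr6 with 3.99, Cxcr3 with 3.02, Ccr4 with 2.96 and Itga6 with 2.30, receptors found mostly on antigen-experienced T cells in the case of the chemokine receptors. Ccr7, which guides naive cells to T zones, stood at 103 and 104 in B cells and at 199 in both CD4 T libraries, below the threshold with 0.94. S1pr1, which lets lymphocytes leave lymphoid organs, had a log2 fold change of 0.46, and Klf2, which controls it, of -0.07.

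Cytokine receptors leaned to the T side. Of 29 tested genes 8 were higher (27.6%) and 1 lower (3.45%), against 3.07% and 2.04% of all genes tested. With a pseudocount of 5, 5 were higher. Il7r, the receptor that keeps naive T cells alive, stood at 3.48 and 3.8 FPKM in B cells and at 224 and 222 in CD4 T cells (log2 fold change 5.59). Il6ra and Il6st, which form the receptor for IL-6, stood at 10.0 and 9.82 and at 7.30 and 7.57 in B cells and at 87.5 and 88.3 and at 65.0 and 66.5 in CD4 T cells. Il2ra, Il2rb, Il18r1, Tnfrsf1a and Il12rb1 completed the group with 3.0, 2.34, 2.63, 3.16 and 2.03. Il9r was the 1 lower gene, with 61.3 and 62.4 in B cells and 10.8 and 9.83 in CD4 T cells. The shared chain Il2rg had a value of 0.58, and Il4ra and Il21r, whose ligands T cells make for B cells, of -0.26 and -0.31. Of 19 STAT, JAK and SOCS genes 3 were higher (15.8%). All 3 encode feedback inhibitors of cytokine signals: Cish with 3.66, Socs3 with 2.69 and Socs1 with 2.03. The JAK and STAT genes themselves lay between -0.39 for Stat2 and 1.02 for Stat5b.

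Innate sensors leaned to the B side. Of 26 tested Toll-like receptor genes and adaptors 5 were lower (19.2%, against 2.04% of all genes tested) and none higher. With a pseudocount of 5, 3 were lower. Tlr9, the sensor of unmethylated DNA, stood at 49.1 and 51.1 FPKM in B cells and at 9.77 and 9.98 in CD4 T cells. Unc93b1, which carries such receptors to endosomes, stood at 421 and 419 in B cells and at 97.8 and 97.6 in CD4 T cells. Cd180 and its partner Ly86, which form a receptor complex of B cells, had log2 fold changes of -2.60 and -2.36, and Irak3, an inhibitor of the pathway, of -2.28. The adaptor Myd88 stood at 23.5 and 23.8 in B cells and at 39.2 and 41.2 in CD4 T cells and did not pass.

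The CD4 T libraries also carried the transcripts of regulatory T cells, which also carry CD4. Of 14 genes of that list 11 were higher (78.6%, against 3.07% of all genes tested) and none lower, with a median of 2.75. With a pseudocount of 5, 3 were higher. Foxp3, the factor that defines regulatory T cells, stood at 2.12 and 2.19 FPKM in B cells and at 30.5 and 30.9 in CD4 T cells. Folr4, the gene of folate receptor 4, had a log2 fold change of 5.18, Gpr83 of 3.49, Ikzf2 of 3.26, Il2ra of 3.0 and Nrp1 of 2.82. Part of the exons of Foxp3 overlaps genes on the opposite strand. Of 20 genes of naive and quiescent T cells 7 were higher and none lower: Igfbp4, Als2cl, Tcf7, Dapl1, Il7r, Lef1 and Actn1. Of 11 genes of follicular helper, Th1 and Th17 cells 4 were higher (36.4%) and 2 lower (18.2%, against 2.04% of all genes tested). The lower genes were Cxcr5 and Ccr6, which B cells use as well. Only 2, Sh2d1a and Cxcr3, were higher with a pseudocount of 5.

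Pathways tied to the T factors were examined next. In the Wnt and TCF list 3 of 19 genes were higher (15.8%, against 3.07% of all genes tested) and none lower. These were Tcf7, Lef1 and Axin2, a target of the pathway that stood at 0.20 in both B libraries and at 16.3 and 16.8 FPKM in the CD4 T libraries. The beta-catenin gene Ctnnb1 was level, with 94.2 and 93.4 in B cells and 92.0 and 92.6 in CD4 T cells. In the list of E proteins, Id proteins and the Notch pathway 3 of 18 were higher (16.7%) and 2 lower (11.1%, against 2.04% of all genes tested). None was lower with a pseudocount of 5. Notch1 stood at 6.2 and 6.00 in B cells and at 28.3 and 28.5 in CD4 T cells, and Notch2, the receptor of marginal zone B cells, at 57.2 and 56.9 and at 15.9 and 15.3, the latter with a log2 fold change of -1.81 that did not pass. Id2, an inhibitor of E proteins, was higher with 2.73 and the glycosyltransferase gene Lfng with 2.24, while the Notch targets Hes1 and Hes5 were lower with -2.32 and -2.43. Id3 had a value of -0.46.

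The Ms4a family held members on both sides, with 2 of 9 tested genes higher and 2 lower (22.2% each, against 3.07% and 2.04% of all). Ms4a4b stood at 22.9 and 21.7 FPKM in B cells and at 577 and 578 in CD4 T cells. Ms4a6b had a log2 fold change of 3.91, Ms4a4c of -2.13 and Ms4a1 of -4.04. Ms4a1 alone was lower with a pseudocount of 5. None of 8 Gimap genes, which encode GTPases of lymphocyte survival, passed in either direction. With 5.11% of all genes tested past the rule, a count of 0 in so short a list says little. Gimap3 and Gimap4 had the largest values of 1.73 and 1.47, and Gimap1 and Gimap5 the smallest of -0.05 and -0.09. Members of these families are close in sequence, and how reads that match several were assigned is not given in the sources used here. Of 18 genes of the BCL2 family 1 was higher (5.56%, against 3.07% of all genes tested): Bbc3, the gene of PUMA, with 2.23. This count was 0 with a pseudocount of 5, and 2 with a pseudocount of 0.1, without CD4 T library 2 or without B library 1, since Pmaip1, the gene of NOXA, lay just under the threshold. Bcl2 itself stood at 25.2 and 24.7 in B cells and at 26.0 and 25.9 in CD4 T cells. Of 21 calcium and potassium channel genes 2 were higher (9.52%): Kcnn4, the calcium-activated potassium channel of T cells, with 3.01 and P2rx7, a channel opened by ATP, with 3.54.

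Activation and metabolic genes were counted next. Of 23 NFAT, AP-1 and immediate early genes 2 were higher (8.70%, against 3.07% of all genes tested) and none lower: Batf3, which also marks dendritic cells, and Nr4a3, an early response gene, which stood at 1.0 and 1.10 FPKM in the B libraries and at 8.50 and 7.87 in the CD4 T libraries. With a pseudocount of 5, and under quantile normalization, Batf3 was the 1 gene higher. Junb and Fos, of the AP-1 complex, had log2 fold changes of 1.71 and 1.11, and Egr3, induced by antigen receptors, of -1.56. Of 23 genes of the lipid list 2 were lower (8.70%, against 2.04% of all genes tested) and none higher, although 1, Fads1, was higher with a pseudocount of 0.1. Scd1 stood at 235 and 236 in B cells and at 12.3 and 12.2 in CD4 T cells, whereas its relative Scd2 stood at 36.1 and 36.7 and at 20.7 and 20.9. Chst3, which encodes a sulfotransferase, stood at 179 and 178 in B cells and at 9.81 and 9.70 in CD4 T cells. Of 16 genes of marginal zone and B-1 cells 4 were lower, Cr2, Mzb1, S1pr3 and Myof, and 2 higher, Cd5, which all T cells carry, and Asb2. With a pseudocount of 5, Cr2 and Mzb1 were lower and Cd5 higher. Cd9, another marker of these B cells, stood at 23.2 and 24.2 in B cells and at 49.3 and 49.9 in CD4 T cells.

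**Figure D4:**
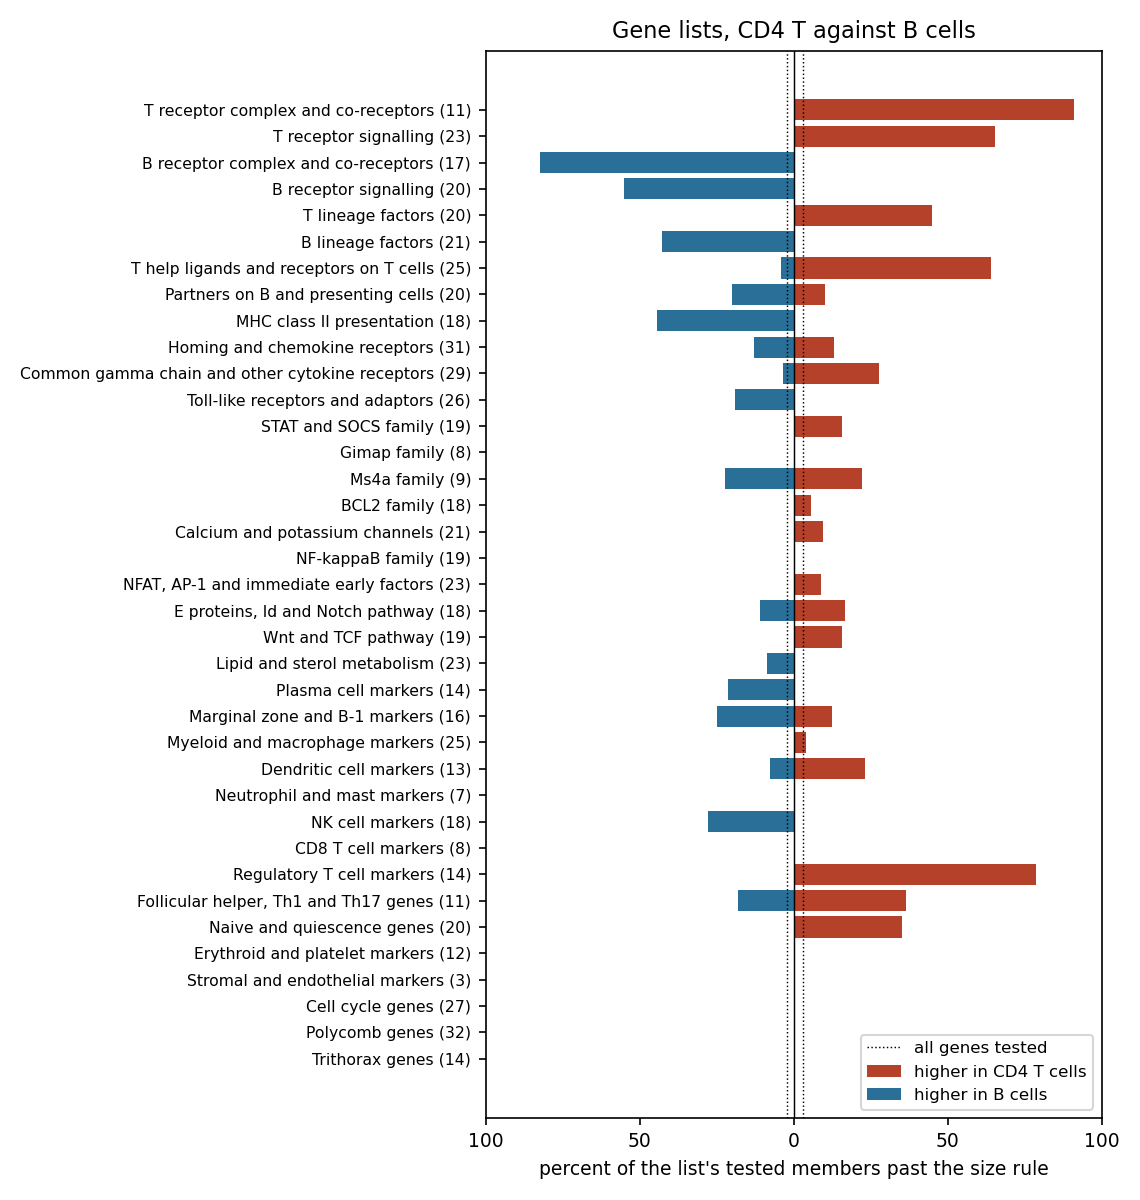
Percent of the tested members of each gene list past the size rule, to the right for genes higher in CD4 T cells and to the left for genes higher in B cells; the number of tested members stands in brackets and dotted lines mark the 3.07% and 2.04% of all genes tested. Receptor, signalling, help and class II lists reach far beyond the dotted lines, while the cell cycle, Polycomb, Trithorax, NF-kappaB and Gimap lists have no bar.

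None of 27 cell cycle genes, 32 Polycomb genes and 14 Trithorax genes passed the size rule, which 5.11% of all genes tested did, so that few calls could be looked for in lists of this size. Mki67, a marker of dividing cells, stood at 15.5 and 15.7 FPKM in B cells and at 15.6 and 15.7 in CD4 T cells, with overlapping libraries. Among the Polycomb genes, values ran from -0.70 for Phc2 to 1.3 for Pcgf2, and Cbx2 had 1.07. Ezh2, the methyltransferase of Polycomb repressive complex 2, stood at 24.0 and 24.3 in B cells and at 28.3 and 28.4 in CD4 T cells.

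Markers of further cell types were counted in the same way. Of 18 tested NK cell genes 5 were lower (27.8%, against 2.04% of all genes tested) and none higher. With a pseudocount of 5 Gzma alone was lower. Gzma, the gene of a cytotoxic granule protease, stood at 48.3 and 45.3 FPKM in B cells and at 3.39 and 3.32 in CD4 T cells, and the activating receptor gene Ncr1 at 13.9 and 15.6 and at 0.96 and 1.18. Other genes shared by NK and cytotoxic T cells did not follow: Nkg7 stood at 21.6 and 21.7 in B cells and at 32.1 and 33.9 in CD4 T cells, and Klrd1 had a log2 fold change of 0.71. The NK list summed to between 278 and 281 in the B libraries and to 217 in both CD4 T libraries. None of 8 CD8 T cell genes passed, and Cd8a stood at 2.22 and 2.44 in B cells and at 6.11 and 6.56 in CD4 T cells. Of 14 plasma cell genes 3 were lower (21.4%), Mzb1, Tnfrsf13b and Irf4, which other B cells also express, and 5 with a pseudocount of 0.1. None of 7 neutrophil and mast cell, 12 erythroid and platelet and 3 stromal genes passed. With 5.11% of all genes tested past the rule, counts of 0 in these lists and in the CD8 list say little. The stromal genes Col1a1, Col3a1 and Pdgfra were at or below 0.12 FPKM in all 4 libraries. Other members of that list, which also holds endothelial genes, were not near 0. The list summed to 114 and 116 FPKM in the B libraries and to 87.1 and 86.6 in the CD4 T libraries.

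**Figure D5:**
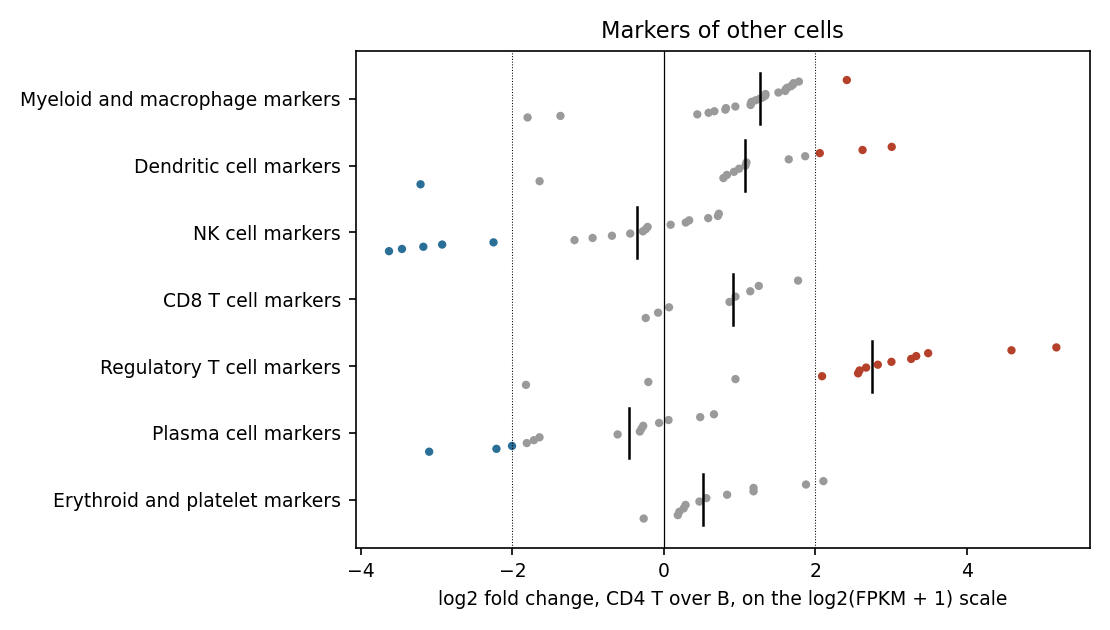
Log2 fold change (CD4 T over B) on the log2(FPKM + 1) scale for each tested marker of other cell types; red and blue dots passed the size rule, dotted lines mark 2 and -2, and bars are medians. Myeloid markers sit to the right of 0 with a median of 1.27 and 1 call, while the 5 NK calls sit to the left.

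The 4 files hold a value per transcript, so transcript use was compared as well. Of 791 genes with more than 1 transcript row and a summed FPKM of at least 10 in both cell types, none had a different leading row together with a share change of 25 percentage points. The median change in share was 0.011 points, and 87.2% of genes changed by less than 1 point. The largest was the 21.5 points of Cd247 described above. The deposited values of transcripts of 1 gene were thus in nearly the same ratio in both cell types. This includes Ptprc, whose isoforms differ between B and T cells at the protein level, so these values do not resolve such isoforms.

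Some called genes lay next to each other in the genome, counted over the genes tested. Of 328 higher genes with a position, 49 lay in 23 runs of neighbouring genes that were all higher, and of 213 lower genes 31 lay in 15 runs. How many would do so by chance was not tested. The runs with the most genes, 3 each, were Cd3g, Cd3d and Cd3e (chr9:44969572-45009663), Cd28, Ctla4 and Icos (chr1:60746388-61000322) and F2rl1, F2r and Iqgap2 (chr13:95511718-95892280) among the higher genes, and H2-Eb2, Btnl2 and BC051142 (chr17:34325503-34460734) among the lower, in GRCm38 coordinates. Pairs included Cd5 and Cd6, Tnfrsf4 and Tnfrsf18 among the higher genes, and H2-DMb2 and H2-DMb1, Fcrl1 and Fcrl5, and Fcrla and Fcgr2b among the lower. Several of these are related copies, so neighbours are not independent.

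The B and myeloid transcripts can also be read in the other libraries of the series, whose Th2 files were made in another way. These values are therefore given without comparison. In the untreated Th2 cultures Cd79b stood at 2.80 and 3.35 FPKM and Cd74 at 10.5 and 24.2. Lyz2 stood at 0.12 and 0.05 there.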

How the data were processed

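The deposited files give 1 FPKM value per RefSeq transcript row, computed by the authors. The submitters' processing notes name the mm10 build, Cufflinks 2.0.2, TopHat 1.3.2 and Bowtie 0.12.8. Not given in the sources used here are the settings, whether strand was used, how reads matching several places were treated, and the number of reads. The depth of each library is therefore unknown, and no counting interval is given. FPKM of 1 gene depends on all others in its library through the scaling.

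From these values, the highest of a gene's rows was taken (21035 rows, 19025 genes). The RefSeq table (GRCm38.p6) held 20486 of the row accessions and lacked 549; it named 315 rows without a symbol and 30 with a date as symbol. Genes with 1 FPKM or more in 2 of the 4 libraries were kept. Log2 fold changes used a pseudocount of 1, so those of low genes come out too small. The spread between the libraries of a pair was close to what read sampling at 1 depth would give, which is an assumption where the depth is unknown. On that assumption each pair was averaged and counted as 1 sample, and limma was not run. The differences between libraries 1 and 2 in B and in CD4 T cells had a correlation of 0.01 over genes. That value bears on a shift shared by libraries of the same number, not on whether a pair is 1 sample. Python 3.11.15, pandas 2.3.3 and numpy 2.4.6 were used. Exon overlaps came from GENCODE vM21.

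Named genes are the 20 largest differences in each direction past the rule without overlap between libraries (leaving out small RNAs, numbered models, Riken clones, pseudogenes and receptor segments), members of the gene lists, the 15 genes with the largest change in a transcript share, and Cd3e, Cd40lg and Pax5. A few genes within this rule are not reported here. The members and lists were chosen with earlier results of these data known. Alternatives were other pseudocounts, filters, ways to collapse rows, scalings, and leaving out each library.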

Additional observations from a re-analysis of the deposited data

How the results depend on the processing

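Of the 689 named or listed genes, 166 were past the size rule; none of these changed sign under the alternatives run, and 120 kept their call in every one. Of the 523 others, 76 changed sign in at least 1 alternative, all with a log2 fold change within 0.29 of 0, among them Bcl2, Runx3 and Cd48. Of the 37 gene lists, 6 had a median that changed sign in at least 1 alternative. The largest such changes came with the filter at 5 FPKM. The Ms4a median went from 0.79 to -0.73 with 5 genes left, and the stromal median from 0.38 to -0.46 with 1 gene left. The Trithorax median went from 0.07 to -0.03 under median-ratio scaling, and the cell cycle median from 0.18 to -0.02 under quantile normalization. The pseudocount weighed most: with 5 in place of 1 the counts of higher and lower genes were 147 and 127 in place of 331 and 220, and 46 of the 166 calls were lost, among them Il4, Ifng, Fasl, Pdcd1, Ikzf2, Notch1, Ncr1, Klra4 and Klra8. It shrinks the differences of low genes most. H2-Aa and Irf4 lay at the threshold and were lost with it too. With 0.1 the counts were 395 and 245. Median-ratio scaling shifted the median log2 fold change of all genes from 0.07 to -0.03 and gave 300 higher and 230 lower genes, and quantile normalization gave 280 and 240. Under both, Il4, Il12rb1, Itgax, Notch1, Sh2d2a and Socs1 were no longer called. H2-Aa was also lost under quantile normalization, and H2-Ab1 was added under median-ratio scaling. The median share of the B receptor, factor and class II genes in the CD4 T libraries was 18.7%; it was 18.9% with summed rows, 17.4% after median-ratio scaling and 19.7% after quantile normalization. Leaving out 1 library gave 18.6% to 18.8%, 327 to 333 higher genes, 214 to 219 lower genes and 154 to 158 listed genes. The genes tested were kept as with 4 libraries. As the libraries of a pair are so close that they were taken as 1 sample, these runs could change little and are no replicate check. Without CD4 T library 1 the calls of H2-Aa, Irf4 and Il4 were lost, without B library 1 that of Il12rb1, and without B library 2 those of Ifng and Sh2d2a. No paired analysis was possible because each group counts as 1 sample and the comparison comes from no test. The limma fit, planned for the case of separate samples, was not run for the same reason. The unknown depth limits all statements on genes near 1 FPKM.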

Other observations

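Gene groups outside the lists were read after their values had been seen and are given as values. Over all genes tested 3.07% were higher and 2.04% lower, and since the groups were chosen by their values nothing is read from their counts. Of 9 Fc receptor and Fc receptor-like genes 7 were lower in CD4 T cells and none higher. Fcrl1 stood at 246 and 254 FPKM in the B libraries and at 22.3 and 22.6 in the CD4 T libraries, Fcrla at 221 and 226 and at 20.9 and 22.3, and Fcamr, a receptor for IgA and IgM, at 48.3 and 49.5 and at 3.21 and 3.03. Fcgrt, the neonatal Fc receptor gene, stood at 17.2 in both B libraries and at 15.4 and 15.7 in the CD4 T libraries. Of 6 genes of the NADPH oxidase and the proton channel that goes with it, 2 were lower: Ncf1, which encodes a cytosolic subunit, and Hvcn1, the channel, whose exons partly overlap Tctn1. Cybb, the catalytic subunit, stood at 91.0 and 89.6 in B cells and at 25.4 and 25 in CD4 T cells and did not pass. Of 9 genes that act on extracellular ATP, NAD or adenosine 3 were higher and 1 lower. Art2b, an ADP-ribosyltransferase on mouse T cells, stood at 0.43 and 0.50 in B cells and at 61.2 and 61.3 in CD4 T cells. Nt5e, the gene of CD73, stood at 0.90 and 0.78 and at 17.2 and 17.0. Cd38, which consumes NAD, stood at 139 and 138 in B cells and at 15.8 and 15.1 in CD4 T cells.

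The Klra genes encode the Ly49 receptors known from NK cells. Of 15 tested 10 were lower in CD4 T cells and none higher, but Klra17 and Klra2 had log2 fold changes of 1.13 and 0.87 and did not pass. Klra12 stood at 111 and 113 FPKM in the B libraries and at 8.52 and 7.54 in the CD4 T libraries, and Klra4 at 14.9 and 15.7 and at 0.23 and 0.40. Klra33, Klra4 and Klra18 stood at 1.98%, 2.07% and 2.30% of their B level in the CD4 T libraries. At 16.2, 15.3 and 13.1 FPKM in B cells they fell short of the 20 FPKM set for the shares of the B receptor genes. Klra12, Klra15, Klra22 and Klra23 were above that level and stood at 7.16%, 10.5%, 10.5% and 10.2%. Genes of this family are nearly identical, so the value of any 1 of them is uncertain.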
